A study of Mus musculus with 3 samples.

Results

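The keratin genes Krt5, Krt14, Krt15, Krt17, Krt6a and Krt16, called basal keratins here, and Krt7, Krt8, Krt18 and Krt19, called luminal keratins, were followed through bulk RNA sequencing of 3 sorted mouse mammary populations. These 10 genes were chosen by name from 54 keratin genes among the 52661 gene identifiers of each table, and each name matched 1 identifier. Per the labels, all 3 populations were PROCR-positive mammary cells sorted as EpCAM positive with high CD49f, the integrin alpha 6 chain. The CD36+ cells were CD36 positive and PDPN (podoplanin) negative, the double-negative cells were sorted as negative for both, and both populations carried a title of Cdh5 positive. The PDPN+ cells were CD36 negative and PDPN positive, with a title of Cdh5 negative. The labels used here name no strain, age, genotype or number of mice. Each population had 1 library, whose values are given below as those of its cells, so no value has a replicate error, no test between populations was possible, and each difference is one between libraries.

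Keratins are the intermediate filament proteins of epithelial cells, and a filament needs a type I and a type II chain as partners. In the mammary gland, Krt5 (type II) and Krt14 (type I) form the filaments of basal cells, which include myoepithelial and stem cells, while Krt8 (type II) and Krt18 (type I) form those of luminal cells. Krt15 and Krt17 are further type I keratins of basal cells, Krt6a and Krt16 are an inducible pair of stressed or regenerating epithelium, and Krt7 (type II) and Krt19 (type I) accompany Krt8 and Krt18 in glandular epithelium. In GENCODE M21 on mm10, the type I genes other than Krt18 lie on chromosome 11 and the type II genes lie on chromosome 15, with Krt18 23698 bases from Krt8.

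Total estimated counts ranged from 51138993 in double-negative cells to 67675778 in CD36+ cells. Levels are given in CPM (counts scaled to a common depth with TMM, a correction for library composition) for a gene across libraries, and in the deposited TPM (transcripts relative to all transcripts, corrected for length) between genes. Where a fold is given, its 95% interval is exact and covers counting error only. The sort genes were present, with Cd36 at 4766, 1523 and 45.1 CPM, Pdpn at 12.5, 32.3 and 830.2 CPM, Procr at 746, 528 and 208 CPM and Cdh5 at 465, 206 and 0.176 CPM in CD36+, double-negative and PDPN+ cells. Cd36 RNA went against the CD36-negative label of the double-negative library, where it was 33.8-fold higher than in PDPN+ cells (32.6 to 34.99), and it was 3.13-fold higher in CD36+ than in double-negative cells (3.10 to 3.15), so double-negative is used below as the label of a library and says nothing of its Cd36 RNA. Of 10 endothelial genes, all 10 exceeded their PDPN+ level at least 4-fold in both CD36+ and double-negative cells, beside 15.1% and 15.0% of all genes with at least 10 CPM in either library, with summed levels of 6467 CPM in CD36+ cells, 4449 CPM in double-negative cells and 140.2 CPM in PDPN+ cells. Epcam, of the labelled epithelial sort, stood at 50.7, 104 and 560.1 CPM in the same order. Of 10 genes of keratinocyte differentiation, Ivl and Krtdap had 0 counts in all 3 libraries, Lgals7 stood at 2.09, 8.58 and 70.0 CPM and Flg at 2.62, 0.871 and 0.0947 CPM in that order, and the sum was 7.48, 9.49 and 78.4 CPM. Fibroblast genes (6) summed to 116, 61.1 and 611 CPM, with Dcn at 43.1, 47.8 and 423 CPM, pericyte genes (5) to 259, 189 and 68.4 CPM, most of it Rgs5, and immune genes (6) to 12.2, 1.03 and 6.07 CPM. The part of other cell types in the keratin values was not tested.

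Krt14, the basal type I chain, stood at 0.186 CPM in CD36+ cells, 123 CPM in double-negative cells and 1425 CPM in PDPN+ cells. It rested on 11 counts in CD36+ cells, 6191 in double-negative cells and 105378 in PDPN+ cells. The gene (chromosome 11 minus strand, 100203162 to 100207548) was thus nearly unread in CD36+ cells and was the most abundant of all keratins by TPM in PDPN+ cells. It was 7668-fold lower in CD36+ than in PDPN+ cells (4286 to 15362) and 11.6-fold lower in double-negative than in PDPN+ cells (11.3 to 11.9). In bulk RNA, fewer cells of a type and less RNA per cell cannot be told apart.

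Krt5, the basal type II chain that pairs with Krt14 (chromosome 15 minus strand, 101707070 to 101712898), stood at 18.4 CPM in CD36+ cells, 3.03 CPM in double-negative cells and 239 CPM in PDPN+ cells. Its order between the first and the second of these libraries was opposite to that of Krt14. Krt5 was 6.06-fold higher in CD36+ than in double-negative cells (5.11 to 7.22), where Krt14 was 659.9-fold lower (369 to 1323). Against PDPN+ cells, Krt5 was 13.0-fold lower in CD36+ cells (12.2 to 13.8) and 78.8-fold lower in double-negative cells (67.2 to 93.0).

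The partners were therefore present in unlike proportions. Per TPM, there was 0.0180 of Krt14 for each Krt5 in CD36+ cells, 67.98 in double-negative cells and 9.96 in PDPN+ cells. Counted in reads, without a correction for length, the ratio of Krt14 to Krt5 was 0.0101 (0.00504 to 0.0182) in CD36+ cells, 40.5 (34.5 to 47.8) in double-negative cells and 5.97 (5.87 to 6.06) in PDPN+ cells. These ratios lie within a library and are free of scaling between libraries. Their intervals did not overlap, but they cover counting error only and not variation between replicates. In CD36+ cells Krt5 made up 77.3% of the basal keratin TPM, Krt17 20.8%, Krt14 1.39% and Krt15 0.286%, so the type II chain exceeded the type I chains of its class together.

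**Figure D1:**
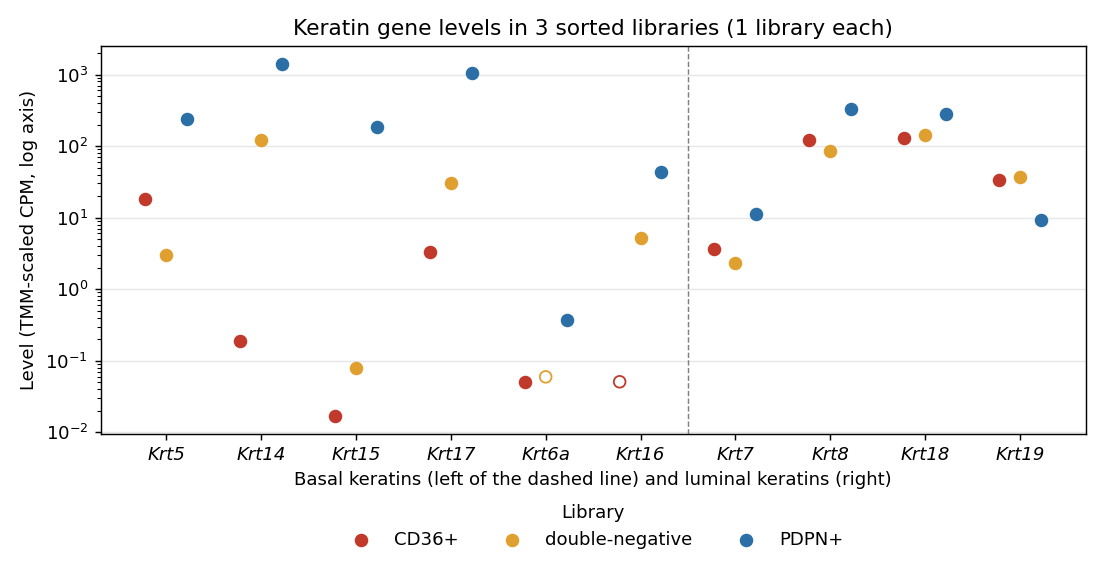
Level of each keratin gene (CPM, log axis) in the CD36+, double-negative and PDPN+ libraries. Each point is 1 library, and an open point stands at the floor of 3 counts for a gene with 0 counts. The PDPN+ points lie highest for every gene but Krt19.

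Krt15 (chromosome 11 minus strand, 100131758 to 100135928), a keratin of the basal layer, stood at 0.0169 CPM in CD36+ cells, 0.0792 CPM in double-negative cells and 186 CPM in PDPN+ cells. It had 1 count in CD36+ cells and 4 counts in double-negative cells, so these values are set by single reads. It was 11034-fold lower in CD36+ than in PDPN+ cells (1980.1 to 435868) and 2353-fold lower in double-negative than in PDPN+ cells (919 to 8636). Between CD36+ and double-negative cells its ratio of 0.213 could not be told from 1 at this depth (0.00433 to 2.15).

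Krt17 (chromosome 11 minus strand, 100256217 to 100261029), a basal keratin that is also induced on injury, stood at 3.34 CPM in CD36+ cells, 30.4 CPM in double-negative cells and 1045 CPM in PDPN+ cells, where it was second among the keratins by TPM. It was 312-fold lower in CD36+ than in PDPN+ cells (272 to 361) and 34.3-fold lower in double-negative than in PDPN+ cells (32.6 to 36.1). It was also 9.10-fold lower in CD36+ than in double-negative cells (7.84 to 10.6). Krt14 exceeded Krt17 by TPM 4.60 times in double-negative cells and 1.54 times in PDPN+ cells, while in CD36+ cells the ratio was 0.0669.

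Krt16 (chromosome 11 minus strand, 100246091 to 100248902) had 0 counts in CD36+ cells, 5.21 CPM in double-negative cells and 43.7 CPM in PDPN+ cells. With its 0 counts in CD36+ cells set to the floor of 3 counts, Krt16 was 862-fold lower there than in PDPN+ cells. The lower end of the counting interval for this fold was 701-fold. Krt16 was 8.39-fold lower in double-negative than in PDPN+ cells (7.40 to 9.55). Krt6a (chromosome 15 minus strand, 101689910 to 101694307), its type II partner, had 3 counts in CD36+ cells, 0 counts in double-negative cells and 27 counts in PDPN+ cells. At 0.365 CPM in its highest library, Krt6a was the 1 gene of the 10 that did not reach 1 CPM anywhere. The pair was thus unequal, since Krt16 reached 48.9 TPM and Krt6a 0.261 TPM in PDPN+ cells.

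Reads of Krt14, Krt16 and Krt17 can be hard to assign, since their transcripts share stretches of sequence. In GENCODE M21, 51.9% of the 31-base words of Krt16, 28.2% of those of Krt14 and 15.8% of those of Krt17 also occurred in transcripts of another gene. The gene that shared most words with Krt16 was Gm11597, with 32.2% of the Krt16 words. For Krt14 it was Krt16 (17.6%) and for Krt17 it was Krt14 (11.8%). The longest stretch that the coding transcripts of Krt14 and Krt16 have in common is 134 bases of exon 1, coding throughout, at chr11:100207017-100207150 for Krt14, chr11:100248476-100248609 for Krt16 and chr11:100260638-100260771 for Krt17 (GRCm38, minus strand). It is shown because a short read from it fits Krt14 and Krt16 equally well, and capitals mark the 28 positions at which Krt17 differs from both.
Krt14: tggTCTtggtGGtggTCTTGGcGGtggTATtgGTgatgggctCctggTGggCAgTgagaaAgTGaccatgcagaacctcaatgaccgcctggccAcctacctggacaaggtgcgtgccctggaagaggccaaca
Krt16: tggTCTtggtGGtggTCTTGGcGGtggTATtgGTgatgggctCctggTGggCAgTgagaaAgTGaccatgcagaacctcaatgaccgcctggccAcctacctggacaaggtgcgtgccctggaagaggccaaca
Krt17: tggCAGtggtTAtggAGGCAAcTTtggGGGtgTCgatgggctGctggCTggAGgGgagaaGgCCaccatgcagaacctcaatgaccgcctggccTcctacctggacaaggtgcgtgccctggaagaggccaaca
The estimated counts divide such reads by a model, so the Krt16 values, lower than those of Krt14 by TPM in the double-negative and PDPN+ libraries, are uncertain. Words shared with other genes were 62.0% for Krt6a, mostly with Krt6b, whose longest reading frame was 97.1% identical to that of Krt6a, and Krt6b had at most 1 count. They were 15.8% for Krt5, 3.74% for Krt15, 36.05% for Krt8, mostly with the pseudogene Krt8-ps, 11.4% for Krt18, 3.03% for Krt7 and 0.439% for Krt19. The genes with the closest reading frames to Krt5 were Krt75 (77.1% identical) and Krt6a (76.5%), which had 4 and 3 counts in CD36+ cells, beside 1087 counts of Krt5.

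Among the luminal keratins, Krt8 (chromosome 15 minus strand, 101996698 to 102004482) stood at 122 CPM in CD36+ cells, 84.4 CPM in double-negative cells and 326 CPM in PDPN+ cells. Its partner Krt18 (chromosome 15 plus strand, 102028180 to 102032027) stood at 131 CPM in CD36+ cells, 145 CPM in double-negative cells and 284 CPM in PDPN+ cells. Both were highest in PDPN+ cells, and neither spanned more than a few-fold over the 3 libraries. Krt8 was 2.66-fold lower in CD36+ cells (2.59 to 2.73) and 3.87-fold lower in double-negative cells (3.74 to 3.99), each against PDPN+ cells. Krt18 was 2.17-fold lower in CD36+ cells (2.11 to 2.23) and 1.96-fold lower in double-negative cells (1.90 to 2.01) against the same library.

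Between CD36+ and double-negative cells, Krt8 was 1.45-fold higher (1.40 to 1.51) and Krt18 1.11-fold lower (1.07 to 1.15) in CD36+ cells. Per TPM, there was 0.661 of Krt8 for each Krt18 in CD36+ cells, 0.411 in double-negative cells and 0.812 in PDPN+ cells, so this pair stayed within a far narrower range than Krt5 and Krt14. By TPM, Krt18 was the most abundant of all keratins in CD36+ cells (115 TPM) and in double-negative cells (139 TPM), and came after Krt14 and Krt17 in PDPN+ cells (350.1 TPM).

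The sequences before the starts of Krt8 and Krt18, neighbours whose levels stayed close, are shown for comparison of the partners. They run from 250 bases before to 50 bases after the RefSeq start (GRCm38.p6), at chr15:102004293-102004592 on the minus strand for Krt8 and chr15:102027966-102028265 on the plus strand for Krt18. Both strands were searched for 4 short motifs, and capitals mark the matches. The motif of the factor AP-2 was GCCNNNGGC. For the TATA box, the letters TATAAA were used. The GC box bound by SP1 was searched as GGGCGG. The last motif, TGANTCA, is that of the factor AP-1.
Krt8: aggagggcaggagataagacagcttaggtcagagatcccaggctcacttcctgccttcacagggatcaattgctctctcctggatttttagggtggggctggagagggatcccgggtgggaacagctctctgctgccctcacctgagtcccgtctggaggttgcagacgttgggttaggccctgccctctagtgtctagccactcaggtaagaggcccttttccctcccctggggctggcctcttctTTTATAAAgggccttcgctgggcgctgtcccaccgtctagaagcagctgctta
Krt18: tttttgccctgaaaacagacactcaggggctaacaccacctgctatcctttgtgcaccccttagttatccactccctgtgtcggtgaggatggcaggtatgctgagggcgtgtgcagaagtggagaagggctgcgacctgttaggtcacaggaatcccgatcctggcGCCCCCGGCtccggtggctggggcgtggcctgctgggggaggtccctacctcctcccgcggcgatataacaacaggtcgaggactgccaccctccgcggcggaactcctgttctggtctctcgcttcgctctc
The TATA letters occurred in the Krt8 window (13.6% of 32851 promoter windows of the same length hold them), and the AP-2 letters in the Krt18 window (16.6% of all windows). The TATA matches began at bases -3 and -1 from the RefSeq start of Krt8, so they lay across that start and not well before it. GC box letters (35.7%) and AP-1 letters (7.81%) were not found in these 2 windows. A match in letters is a description of the window and not a binding site. Windows were present for 5 of the 10 genes, and those of Krt7 and Krt14 lie wholly inside the gene as GENCODE annotates it. The RefSeq starts of Krt8 and Krt18 also lie inside these genes as GENCODE annotates them, so their windows are partly inside the gene.

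Krt7 (chromosome 15 plus strand, 101411043 to 101430313) stood at 3.63 CPM in CD36+ cells, 2.32 CPM in double-negative cells and 11.3 CPM in PDPN+ cells. Against PDPN+ cells it was 3.11-fold lower in CD36+ cells (2.68 to 3.63) and 4.88-fold lower in double-negative cells (4.02 to 5.97). By TPM these gaps were wider, 5.77-fold and 8.28-fold. TPM lacks the TMM correction between libraries. Krt8, with 1 transcript, also went from 2.66-fold to 3.73-fold lower in CD36+ cells and from 3.87-fold to 4.96-fold in double-negative cells. For Krt7, the lengths behind TPM differed between libraries as well. The part of each in the wider Krt7 gaps was not tested. The effective length implied by the deposited counts and TPM was 3875 bases in CD36+ cells, 3899 in double-negative cells and 2929 in PDPN+ cells, for a gene with 5 transcripts of 351 to 4094 bases in GENCODE M21.

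Krt19 (chromosome 11 minus strand, 100140810 to 100148665), a type I keratin that lacks most of the tail domain, went the other way. It stood at 33.9 CPM in CD36+ cells, 36.9 CPM in double-negative cells and 9.33 CPM in PDPN+ cells, which was the lowest of the 3. It was 3.64-fold higher in CD36+ cells (3.33 to 3.97) and 3.96-fold higher in double-negative cells (3.62 to 4.32), each against PDPN+ cells. By TPM these folds were 2.16 and 2.72. Between CD36+ and double-negative cells Krt19 was 1.09-fold lower in CD36+ cells (1.02 to 1.16). Relative to Krt18, there was 0.267 of Krt19 by TPM in CD36+ cells, 0.278 in double-negative cells and 0.0408 in PDPN+ cells. A list of 18 luminal genes other than keratins did not share 1 direction. Of the 9 with at least 10 CPM in either library, 3 were at least 4-fold higher and 3 at least 4-fold lower in CD36+ than in PDPN+ cells, beside 15.1% higher and 17.6% lower of all genes at that level. Kit, a receptor of luminal progenitors, stood at 129.95, 108 and 7.36 CPM and Gata3, a luminal transcription factor, at 5.54, 4.73 and 236 CPM in CD36+, double-negative and PDPN+ cells.

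**Figure D2:**
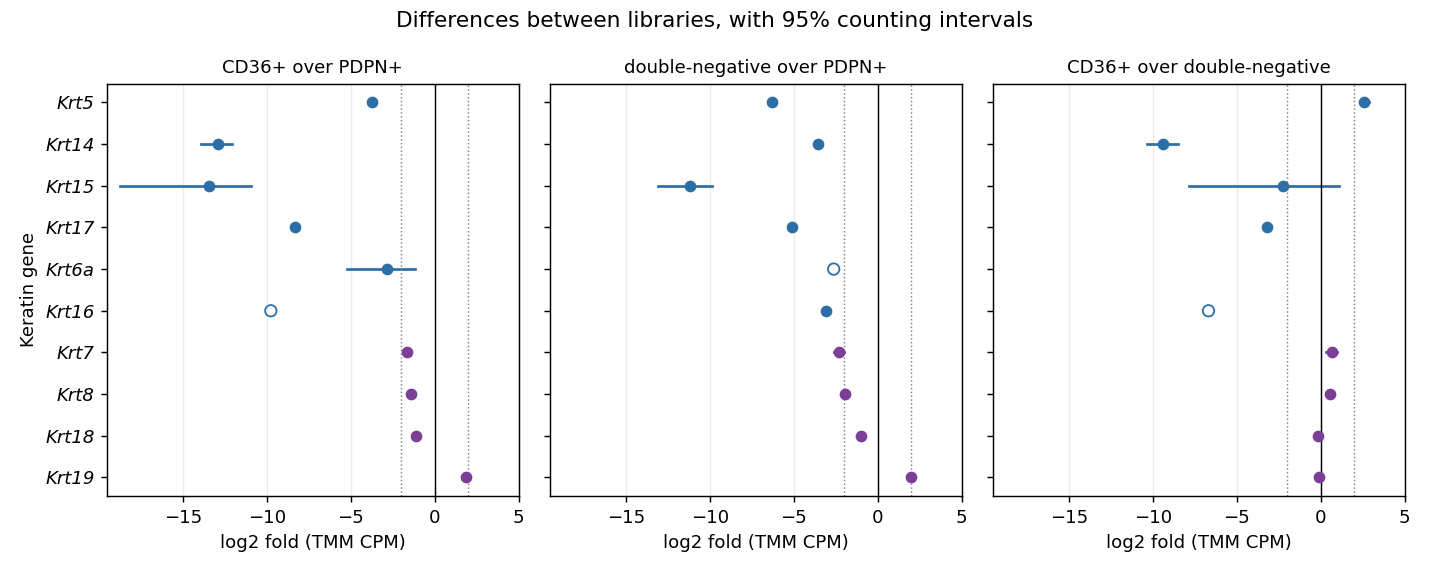
Log2 fold of each keratin gene between libraries (CPM), for CD36+ over PDPN+, double-negative over PDPN+ and CD36+ over double-negative. Bars are 95% counting intervals, open points are folds against the floor of 3 counts, dotted lines mark 4-fold, blue points are basal and purple points luminal keratins. Krt19 alone lies right of 0 in the first and second panels, and Krt5 lies furthest right in the last.

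A gene was counted as apart at 4-fold or more with at least 10 CPM in the higher library of the pair. Between the CD36+ and PDPN+ libraries, 9 of the 10 keratins reached this level in either library and 5 were lower in CD36+ cells (Krt5, Krt14, Krt15, Krt16 and Krt17), 0 higher. By the same rule 32.8% of the 9387 genes measured in this pair were apart in either direction, 17.6% lower and 15.1% higher in CD36+ cells. All 5 were basal keratins, whose log2 folds ran between -13.43 and -3.70, beside a median of -0.02 over all genes of the pair. The 4 luminal keratins lay between -1.64 and 1.86. Krt19 passed the fold under upper quartile scaling. Krt7, 3.11-fold lower, passed it under total counts, at 4.12-fold. By TPM it was 5.77-fold lower, but at 5.96 TPM in PDPN+ cells it stood under the minimum of 10.

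Between the double-negative and PDPN+ libraries, which share PDPN+ cells with the pair above, 6 of 9 keratins were lower in double-negative cells and 0 higher, beside 34.3% of 9515 genes apart in either direction, 19.3% lower and 15.0% higher. The 5 basal keratins that reached the level were among them, with log2 folds from -11.20 to -3.07 beside a median of -0.11 over all genes. Krt7 was the other, a call that was lost under upper quartile scaling, where 5 were lower. Krt7 was still 4.01-fold lower under that scaling, so the call was lost at the minimum level and not at the fold. By TPM, Krt7 stood under the minimum as well. Krt8 and Krt19 lay just under the fold of the rule, in opposite directions, and Krt19 passed it under upper quartile scaling and under TMM over coding genes. Krt8 passed it under total counts, at 4.53-fold, and by TPM, at 4.96-fold.

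Between CD36+ and double-negative cells, 6 of the 10 keratins reached 10 CPM in either library. Krt5 was higher in CD36+ cells and Krt14 and Krt17 were lower, beside 24.3% of 8968 genes apart in either direction, 12.3% higher and 12.0% lower. The 3 luminal keratins among the 6 were Krt8, Krt18 and Krt19, and none of them was 2-fold apart.

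The basal keratins together stood at 21.96 CPM in CD36+ cells, 161 CPM in double-negative cells and 2939 CPM in PDPN+ cells. The luminal keratins together stood at 291 CPM in CD36+ cells, 269 CPM in double-negative cells and 630.4 CPM in PDPN+ cells. The basal sum was 134-fold lower in CD36+ cells (127 to 141) and 18.2-fold lower in double-negative cells (17.8 to 18.6) than in PDPN+ cells. By TPM the first of these was 264-fold. Without Krt14, the remaining sum was 69.5-fold lower in CD36+ cells and 39.1-fold lower in double-negative cells than in PDPN+ cells, so Krt14 widened the first gap and narrowed the second. The full sum was 7.35-fold lower in CD36+ than in double-negative cells (6.93 to 7.80), and without Krt14 it was 1.78-fold lower. That remaining sum adds genes of opposite direction. Krt5 was 6.06-fold higher in CD36+ than in double-negative cells, while Krt17 was 9.10-fold lower and Krt16 had 0 against 263 counts. The luminal sum was 2.17-fold lower in CD36+ cells (2.13 to 2.21) and 2.35-fold lower in double-negative cells (2.30 to 2.39) than in PDPN+ cells. Between CD36+ and double-negative cells the luminal sum differed by 1.08-fold (1.06 to 1.11), with a direction that turned under total counts and by TPM.

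The balance of the classes within a library followed a wide order. Per TPM, there was 0.0583 of basal for each luminal keratin in CD36+ cells, 0.664 in double-negative cells and 5.24 in PDPN+ cells. In reads, the ratio was 0.0755 (0.0713 to 0.0799) in CD36+ cells, 0.601 (0.584 to 0.618) in double-negative cells and 4.66 (4.62 to 4.71) in PDPN+ cells. The counting intervals, each from 1 library, did not overlap. Luminal keratins thus held the larger part in the CD36+ and double-negative libraries and basal keratins in PDPN+ cells, and in double-negative cells the larger class turned when Krt18 was left out, with a ratio of 1.31 in reads. Without Krt14 the ratio was 0.144 in double-negative cells and 2.40 in PDPN+ cells. All 10 genes took 0.0274% of the counts of CD36+ cells, 0.0425% of those of double-negative cells and 0.413% of those of PDPN+ cells.

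Among the 10 keratins, the type II chains were Krt5, Krt6a, Krt7 and Krt8. The other members, all type I, together exceeded them by TPM in every library. The ratio was 1.71 in CD36+ cells, 5.56 in double-negative cells and 7.62 in PDPN+ cells. Of the summed TPM of these 10 genes, without the other keratins, Krt18 made up 48.8% in CD36+ cells, Krt8 32.2% and Krt19 13.0%. By the same share, Krt18 and Krt14 led in double-negative cells, at 35.5% and 31.4%. Krt14 made up 44.7% and Krt17 28.9% in PDPN+ cells.

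**Figure D3:**
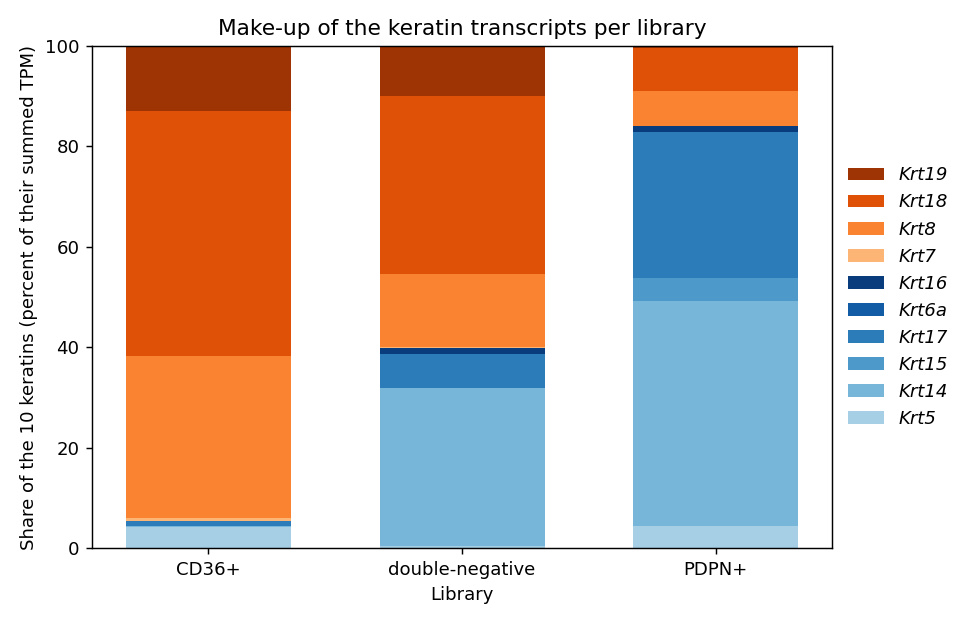
Share of each gene in the summed TPM of the 10 keratins (percent) in the CD36+, double-negative and PDPN+ libraries, basal keratins in blue and luminal keratins in orange. Krt8, Krt18 and Krt19 fill most of the CD36+ bar, while Krt14 and Krt17 fill most of the PDPN+ bar.

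The levels of the basal keratins, set as a percent of PDPN+ cells, were uneven. In CD36+ cells they ran from 0.00906% for Krt15 to 7.69% for Krt5, and in double-negative cells from 0.0425% for Krt15 to 11.9% for Krt16, over the 5 of 6 genes whose highest library had at least 10 CPM. Krt16, with 0 counts in CD36+ cells, was set to the floor of 3 counts there, and genes at 0 were treated in the same way below. Trp63, the transcription factor p63 of basal epithelium, stood at 0.00289% in CD36+ cells, with 3 counts, and at 1.94% in double-negative cells. Of the 9 basal epithelial genes other than keratins, 7 were at least 4-fold lower and 0 higher in CD36+ than in PDPN+ cells, and 7 lower and 0 higher in double-negative than in PDPN+ cells. Over all genes, 17.6% were lower and 15.1% higher in the first of these pairs, and 19.3% lower and 15.0% higher in the second. Of 7 myoepithelial genes, 6 were lower and 0 higher in each of these pairs. The percents of the 9 basal epithelial genes other than keratins ran from 0.00289% to 120% (Itgb4) in CD36+ cells and from 0.147% (Lama3) to 33.9% (Itga3) in double-negative cells. The 7 myoepithelial genes ran from 0.00846% (Tpm2) to 71.3% (Tagln) and from 0.0636% (Cnn1) to 28.2% (Mylk) in the CD36+ and double-negative cells. The 4 luminal keratins ran from 32.1% (Krt7) to 364% (Krt19) in CD36+ cells and from 20.5% (Krt7) to 396% (Krt19) in double-negative cells.

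**Figure D4:**
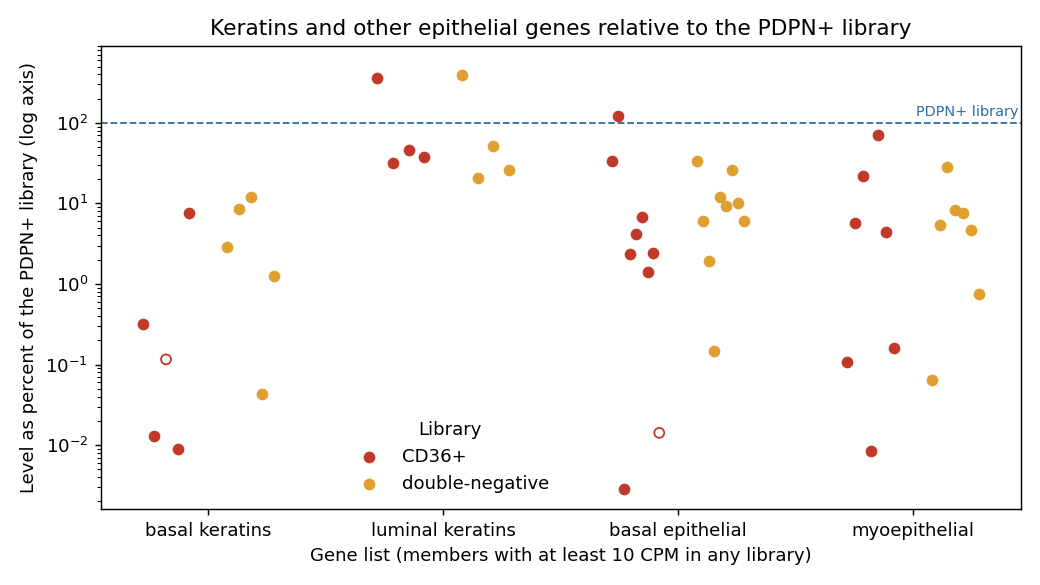
Level of each gene in the CD36+ and double-negative libraries as a percent of its level in PDPN+ cells (log axis), for the keratins and for lists of other basal epithelial and myoepithelial genes whose highest library had at least 10 CPM. Open points stand at the floor of 3 counts, and the dashed line is the level in PDPN+ cells itself. Krt5 in CD36+ cells, at 7.69%, lies far above the other basal keratins of that library.

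Of 19 other epithelial keratins, 18 were found in the tables and 6 reached 1 CPM in any library. Krt23, a type I keratin of glandular epithelium, stood at 20.1 CPM in CD36+ cells, 43.1 CPM in double-negative cells and 277 CPM in PDPN+ cells, and was 13.8-fold lower in CD36+ cells (13.0 to 14.6) and 6.43-fold lower in double-negative cells (6.15 to 6.72) than in PDPN+ cells. Krt20, a type I keratin of gut and urinary epithelium, stood at 30.3 CPM in CD36+ cells, 17.8 CPM in double-negative cells and 1.49 CPM in PDPN+ cells. Like Krt19, it was higher in both libraries than in PDPN+ cells, 20.4-fold (16.8 to 24.9) in CD36+ cells and 12.0-fold (9.81 to 14.7) in double-negative cells. Krt222 was high in CD36+ cells alone, at 36.05 CPM, against 0.515 CPM in double-negative cells and 0.798 CPM in PDPN+ cells. Krt42 and Krt10 had 0 counts in the CD36+ and double-negative libraries and 22.1 and 7.71 CPM in PDPN+ cells, and Krt80 did not pass 2.89 CPM. Of 4 genes of the list with at least 10 CPM in CD36+ or PDPN+ cells, 2 were at least 4-fold higher and 2 lower in CD36+ cells, beside 15.1% and 17.6% of all genes. Of 3 in the double-negative and PDPN+ pair, 1 was higher and 2 were lower in double-negative cells, beside 15.0% and 19.3%. Of 3 in the CD36+ and double-negative pair, 1 was higher and 0 lower in CD36+ cells, beside 12.3% and 12.0%.

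Desmosome and hemidesmosome genes, whose products anchor keratin filaments, were followed as a list of 20 that also held Krtcap2 and Krtcap3, which are not anchors. Krtcap2 stood at 39.2, 32.1 and 37.5 CPM in CD36+, double-negative and PDPN+ cells and enters the counts and medians, while Krtcap3 stayed under 10 CPM. Of the 20, 14 reached 10 CPM in either library of each pair with PDPN+ cells. Of these, 7 were at least 4-fold lower and 0 higher in CD36+ cells, beside 17.6% lower and 15.1% higher of all genes, with a median log2 fold of -2.23, beside -0.02 over all genes. In double-negative cells 10 were lower and 0 higher, beside 19.3% and 15.0% of all genes, with a median of -2.88, beside -0.11. Between CD36+ and double-negative cells, 1 of 11 was higher and 3 were lower in CD36+ cells, beside 12.3% higher and 12.0% lower of all genes. Itga6, which encodes the sorted CD49f, stood at 436 CPM in CD36+ cells, 399 CPM in double-negative cells and 1021 CPM in PDPN+ cells. Dsp, the desmoplakin gene that ties keratins to desmosomes, stood at 55.9 CPM in CD36+ cells, 47.2 CPM in double-negative cells and 313 CPM in PDPN+ cells. Pkp1, a desmosomal plakophilin, had 4 counts in CD36+ cells, and stood at 12.4 CPM in double-negative cells and 156 CPM in PDPN+ cells. Dst, a gene for hemidesmosomal linkers, was 2.41-fold lower in CD36+ cells (2.38 to 2.45) and 4.98-fold lower in double-negative cells (4.87 to 5.09) than in PDPN+ cells. Dsg2, a desmosomal cadherin, was highest in double-negative cells, at 238 CPM, against 16.6 CPM in CD36+ cells and 65.1 CPM in PDPN+ cells.

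Genes with profiles most like those of the sums were found by distance in log2(CPM + 0.5), centred on the mean of the 3 libraries, among 7281 nuclear coding genes with at least 20 CPM in their highest library. Nearest to the basal sum were Nhsl1, Klhl29, Igfbp6, Tns4 and Epb41l4a, at distances of 0.09 to 0.50. In CD36+ cells Klhl29, Igfbp6, Tns4 and Epb41l4a stood at 0.0169, 0, 0.372 and 0.0507 CPM. These levels lie under the added 0.5 CPM, so their nearness to the sum depends on that addition. Nhsl1 stood at 1.10 CPM in CD36+ cells, 10.1 CPM in double-negative cells and 199 CPM in PDPN+ cells. The basal keratins themselves lay farther from their sum, from 0.80 for Krt17 to 4.51 for Krt6a. Krt6a stayed under the added 0.5 CPM in every library. Krt14, Krt15 and Krt16 lay under it in CD36+ cells, and Krt15 also in double-negative cells. The distances of these genes therefore depend on that addition too. Nearest to the luminal sum were Dctn4, Rrp1b, Fryl, Plp2 and H1f0, at 0.03 to 0.04, while Krt18 lay at 0.22, Krt8 at 0.51, Krt7 at 0.59 and Krt19 at 2.49. With 3 libraries, such likeness is a description of 3 values and nothing more.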

How the data were processed

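Per the labels, 3 libraries of sorted mouse mammary cells were sequenced, 1 per population. RNA was isolated with either of a pair of kits, made into libraries with a low-input kit or a stranded kit with ribosomal RNA removal, and read on a NextSeq or a NovaSeq instrument. The labels do not say which library had which, so kit, instrument and population cannot be told apart. The authors deposited estimated counts and TPM per gene. The submitters' processing notes name Salmon 0.9.1 and mm10, with no annotation release or strand setting. The file headers also give effective lengths, which were not used for genes with several transcripts because they did not match counts divided by TPM. Implied lengths were computed from counts and TPM instead.

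The deposited estimated counts were first rounded. Symbols came from GENCODE M21 (52566 identifiers matched without version). TMM factors were computed over all 3 libraries with edgeR 4.0.16 in R 4.3.3, without a test. Other steps used Python 3.11.15, numpy 2.4.6, pandas 2.3.3, scipy 1.17.1, Biopython 1.88 and matplotlib 3.10.9. Folds carry exact (Clopper-Pearson) 95% counting intervals. A gene at 0 counts was set to 3 counts for its fold. Reads may be PCR copies, which intervals do not cover.

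The 10 genes and the 15 lists were chosen with earlier results of these data known. Named genes were the 10 keratins, other keratins reaching 1 CPM, up to 4 of the most abundant genes per list, the genes of the sort and titles, and the 5 nearest genes per sum. Not every gene the rule gives is described. Pkp1, Flg, Krtcap2, Krtcap3, Lama3, Itgb4, Krt6b, Krt75, Ivl, Krtdap, Tpm2, Tagln, Cnn1 and Mylk, and the list examples outside the 4 most abundant, were chosen after their values were seen. Alternatives were total counts, upper quartile, median-of-ratios and coding-gene TMM scaling, TPM, other size rules and left-out genes.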

Additional observations from a re-analysis of the deposited data

How the results depend on the processing

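All 142 alternative values of the 29 single-gene folds kept their direction, and 55 of them moved beyond the counting interval. Each scaling moved all genes of a pair by the same amount, and only TPM moved genes apart. These amounts were small beside most of the folds, so the kept direction says little about how firm the folds are. Total counts moved every log2 fold by -0.40, -0.23 and -0.17 (CD36+ over PDPN+, double-negative over PDPN+, CD36+ over double-negative), and upper quartile scaling by 0.27, 0.28 and -0.01. In that order, the ratio of basal sums, reported as 0.00747, 0.0549 and 0.136, was 0.00565, 0.0468 and 0.121 by total counts, 0.00379, 0.0457 and 0.0830 by TPM, and 0.0144, 0.0256 and 0.562 without Krt14. It was 0.00901 and 0.0669 for the first and second pair by upper quartile, and 0.0601 for the second by coding-gene TMM. The ratio of luminal sums, reported as 0.461, 0.426 and 1.08, was 0.348, 0.363 and 0.959 by total counts, 0.341, 0.361 and 0.946 by TPM, and 0.479, 0.466 and 1.03 by coding-gene TMM. It was 0.556 and 0.519 for the first and second pair by upper quartile, and 0.356 and 1.29 for the second and last pair without Krt18. The ratio of basal to luminal reads, 0.0755, 0.601 and 4.66 in the CD36+, double-negative and PDPN+ libraries, was 0.0583, 0.664 and 5.24 by TPM, 0.137, 1.31 and 8.47 without Krt18, and 0.0606, 0.575 and 4.72 per base of the longest GENCODE transcript, an alternative chosen after seeing the data. Without Krt14 it was 0.144 and 2.40 in the double-negative and PDPN+ libraries. Adding Krt6b changed no sum beyond its interval. By upper quartile, 1 keratin was at least 4-fold higher in each pair with PDPN+ cells, as was 1 by coding-gene TMM in double-negative cells. At 2-fold, 1 was higher in each of these pairs, and 8 were lower in CD36+ than in PDPN+ cells. With no minimum level, 4 were lower in CD36+ than in double-negative cells. The cause was not tested. No paired analysis was possible because each population has 1 library. Genes with few counts in a library, such as Krt15 and Krt6a, are limited by depth.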

Other observations

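Of 16 other intermediate filament genes, 4 reached 10 CPM in CD36+ or PDPN+ cells, of which 2 were at least 4-fold higher and 1 lower in CD36+ cells, beside 15.1% higher and 17.6% lower of all genes. In double-negative against PDPN+ cells, 2 of 5 were higher and 1 was lower, beside 15.0% higher and 19.3% lower of all genes. Vim, which encodes vimentin of mesenchymal and endothelial cells, stood at 619 CPM in CD36+ cells, 710.03 CPM in double-negative cells and 100.1 CPM in PDPN+ cells, so it was 6.18-fold higher in CD36+ cells (6.03 to 6.34) and 7.10-fold higher in double-negative cells (6.92 to 7.28) than in PDPN+ cells. Synm, the gene of synemin, stood at 128, 85.1 and 28.2 CPM in the same order. Lmna, which encodes the nuclear lamins A and C, stood at 713, 360.1 and 825 CPM. Nefh, a neurofilament gene, had 2113 counts in double-negative cells and 2 counts in each of the CD36+ and PDPN+ libraries. This gene was singled out after its values were seen.

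Of 26 hair and inner root sheath keratins, 25 were found in the tables and 6 reached 1 CPM. In the CD36+ and PDPN+ pair, 0 of them reached 10 CPM in either library. In each pair with double-negative cells only 1 did, Krt71, and it was not 4-fold apart. Over all genes, 34.3% were apart in the double-negative and PDPN+ pair and 24.3% in the CD36+ and double-negative pair. Krt71 was the most abundant, at 9.85 CPM in CD36+ cells, 15.3 CPM in double-negative cells and 7.004 CPM in PDPN+ cells. Krt87 had 386 counts in double-negative cells and 0 counts in the CD36+ and PDPN+ libraries, and Krt72 had 110 counts in double-negative cells, 0 in CD36+ cells and 1 in PDPN+ cells.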
